A study of Homo sapiens with 60 samples.

Results

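The genes described here are 35 genes that build fibrous and sheet-like extracellular matrix: 21 collagen chains and 14 genes whose products modify, fold, cut or cross-link collagen. They were listed by name, but with earlier results of these data known, so no test was run over the list. A member under 1 CPM (read count scaled by library size) in every library would have been dropped. All 35 stayed: each passed the low-count filter, among 19366 genes tested of 60675 gene rows. P4HA3 was the member nearest the limit and reached at most 1.21 CPM.

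The cells were SW1783, an established human astrocytoma line that grows as an adherent culture, harvested after 24 h of exposure. Each treated culture received an ethanol extract of 1 herb or 1 multi-herb formula at 1 of 3 doses, each 5 times the next. Polygalae Radix was given at 30, 6 and 1.2 µg/mL, and Aucklandiae Radix at 160, 32 and 6.4 µg/mL. The herbs Menthae Herba and Saposhnikoviae Radix and the formulas Guibi-tang, Saengmaek-san, Okbyeongpung-san and Soyo-san were given at 500, 100 and 20 µg/mL. The design text ties a top dose under 500 µg/mL to the extract's own inhibitory concentration, so "high" is a growth-inhibiting dose for Polygalae Radix and Aucklandiae Radix. The 3 vehicle libraries received DMSO. Every dose of Guibi-tang, Saengmaek-san, Menthae Herba and Saposhnikoviae Radix had 3 libraries, and every dose of Polygalae Radix, Aucklandiae Radix and Soyo-san had 2. Okbyeongpung-san had 1 library a dose and was not tested. The library names fall into 5 sets, which pair Polygalae with Aucklandiae, Menthae with Saposhnikoviae, Saengmaek-san with Guibi-tang and Soyo-san with Okbyeongpung-san, and hold the vehicle alone. Against the vehicle, set and extract therefore cannot be told apart, while the doses of 1 extract share a set. The labels do not say whether replicates were separate cultures, so p-values measure only the spread between these libraries.

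Collagens are proteins of 3 chains wound into a helix. Types I, III, V and XI assemble into fibrils, type IV forms the sheet of basement membranes, and type VI forms beaded filaments. Before winding, prolyl 4-hydroxylases (P4HA1, P4HA2 and P4HA3) and lysyl hydroxylases (PLOD1, PLOD2 and PLOD3) hydroxylate the chains in the endoplasmic reticulum, and the chaperone SERPINH1 (HSP47) holds the folded helix. Outside the cell BMP1, helped by PCOLCE, removes the C-terminal propeptide of fibrillar procollagen, and the lysyl oxidases (LOX and LOXL1 to LOXL4) start the cross-links. In the normal brain fibrillar collagen is largely limited to vessels and meninges, whereas glioma cells in culture often express it.

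Promoter sequences are shown as 6 stretches covering 7 members because they carry the promoter motifs by which the chains and the processing genes were compared. The RefSeq table (GRCh38.p14) gave a window of 250 bases before to 50 bases after the start for 26 of the 35 members, 15 chains and 11 processing genes, and 4 motifs were counted on both strands. None of these 4 letter strings contains another. The first stretch is shared by COL4A1 and COL4A2, whose RefSeq starts lie head to head on chromosome 13 with 126 bases between them. Capitals mark the motif: CCAAT in the first, GGGCGG in COL27A1, the one chain that rose under Polygalae Radix, and ACGTG in the others, written as CACGT where it lies on the opposite strand. ACGTG is the core letters of the element that hypoxia-inducible factors bind.
COL4A1 and COL4A2, chr13:110307166-110307195, plus strand: cgggccgagctccCCAATttgttggcgctg
COL27A1, chr9:114155387-114155536, plus strand: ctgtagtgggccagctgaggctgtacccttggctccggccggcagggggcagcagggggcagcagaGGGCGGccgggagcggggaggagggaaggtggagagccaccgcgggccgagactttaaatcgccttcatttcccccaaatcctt
P4HA1, chr10:73096936-73096965, minus strand: gtgtgatcgagctCACGTagcgagggctgc
PLOD2, chr3:146161368-146161397, minus strand: gcgtgagcctccaCACGTagccgcaggcag
LOX, chr5:122078428-122078457, minus strand: cgctccctgtgcaACGTGtctggggggagg
SERPINH1, chr11:75562273-75562302, plus strand: gctcgagagcgagagtCACGTcccggcgct
In GENCODE release 29 the stretches of COL4A1 and COL4A2, P4HA1 and SERPINH1 lie in an exon, that of PLOD2 in an intron, and those of COL27A1 and LOX outside any gene. ACGTG was found in the windows of 4 of 11 processing genes (P4HA1, PLOD2, LOX and SERPINH1) and 3 of 15 chains (COL5A1, COL12A1 and COL15A1), against 21.4% of all 35116 windows. GGGCGG was in 12 of 15 chains and 8 of 11 processing genes, against 45.0% of all windows. CCAAT was in 5 of 15 chains and 4 of 11 processing genes, against 34.6%. GAANNTTC was in 3 of 15 chains and 2 of 11 processing genes, against 6.77%. A member counted if any window listed for it matched, while the percentages are of single windows, so the rates are not alike. The windows of COL4A1 and COL4A2 overlap, as do those of COL4A5 and COL4A6, so 1 site can count for 2 chains. All 4 of these genes are among the CCAAT chains, and COL4A5 and COL4A6 are among the GAANNTTC chains. A match describes the letters and not a bound site.

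Library totals ran from 19031094 to 37686975 counts. In each library the log2 difference of every gene from the vehicle mean was regressed on log2 transcript length, and this slope ran from -0.671 to 0.103 log2 units per doubling of length. In 14 of the 60 libraries it was under -0.15, meaning that long transcripts read low. These include Saposhnikoviae high replicate 2, Menthae high replicate 3 (-0.516) and Okbyeongpung high (-0.595), and none of Polygalae or Aucklandiae Radix, nor the high dose of Guibi-tang. Of 10 astrocyte and glioma markers 5 were at 1 CPM or more in the vehicle (VIM at 4880, CD44 at 2700, SOX9 at 80.7, SLC1A3 at 30.5 and NES at 7.14 CPM), while GFAP (0.167 CPM), S100B (0.143 CPM), AQP4, ALDH1L1 and SOX2 were at or near 0. All 9 listed fibroblast and mesenchymal markers were at 1 CPM or more, with a summed level of 802 to 862 CPM in the vehicle and 481 to 890 CPM over all libraries. All values are relative to the library, and in bulk RNA fewer cells of a kind and less RNA per cell cannot be told apart.

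In vehicle cells the type I chains, COL6A1 and LOXL2 led the group per transcript length. COL1A1 (chromosome 17, 50183289 to 50201632, minus strand, GRCh38) stood at 604 ± 16.5 CPM per kb (SD, n = 3) and COL6A1 at 407 ± 14 CPM per kb. COL1A2 (chromosome 7, 94394561 to 94431232, plus strand) followed at 356 ± 11.6 and the lysyl oxidase LOXL2 at 338 ± 8.56 CPM per kb. COL6A2 (324 ± 13.1) and COL5A1 (304 ± 8.56) came next. LOXL2 and COL6A2 differ by little more than 1 SD, while COL1A1 and COL6A1 stand well beyond their spread from the next in order. Among the modifying enzymes PLOD1 was the most abundant at 223 ± 4.1 CPM per kb, ahead of SERPINH1 at 130 ± 6.48, PLOD3 at 120 ± 5.2, PLOD2 at 81 and P4HA1 at 79.6 ± 0.397 CPM per kb. The basement membrane chain COL4A2 stood at 122 ± 2.43 CPM per kb and COL4A1, with which it winds into 1 helix, at 52.6. The type VI chain COL6A3 was far below COL6A1 and COL6A2, at 18.8 CPM per kb. COL3A1 (6.4), COL13A1 (5.88), COL11A1 (4.58), COL15A1 (2.41), COL27A1 (2.08), LOXL4 (0.757) and P4HA3 (0.194 CPM per kb) were the scarce members.

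The 21 chains together made up 1.44% ± 0.0267 (SD, n = 3) of the counts in vehicle cells and the 14 processing genes 4094 ± 107 CPM. At the high dose of Polygalae Radix the chains fell to 0.252% ± 0.0175 and the processing genes to 990.7 ± 31.4 CPM (n = 2), and at the high dose of Guibi-tang to 0.238% ± 0.00948 and 1373 ± 81.7 CPM (n = 3). Aucklandiae Radix at the high dose showed another shape: the chains were at 0.629% ± 0.0343, below its low dose (1.12%), while the processing genes were at 3548 ± 53.6 CPM against 3822 ± 23.3 CPM at the low dose (n = 2). Menthae Herba lay between, with chains at 0.521% ± 0.0966 and processing genes at 2646 ± 144 CPM (n = 3). Saposhnikoviae Radix, Saengmaek-san and Soyo-san had the chains at 1.12%, 1.1% and 1.1% at the high dose. Their low doses were at 1.14%, 1.21% and 1.16%, all below the vehicle. The ratio of summed chains to summed processing genes was 3.52 in the vehicle, 2.54 under Polygalae Radix, 1.77 under Aucklandiae Radix, 1.96 under Menthae Herba and 1.74 under Guibi-tang at the high dose. At the low dose it was 3.09, 2.92, 3.29 and 3.04 in the same order. The Menthae Herba high dose libraries ran from 1.67 to 2.22, the lowest being the one with a slope of -0.516. Chain transcripts were 3187 to 11723 bases long and those of processing genes 1702 to 5102 bases. The part of transcript length in these ratios was not tested. These sums are led by the abundant members, so the single genes follow.

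**Figure D1:**
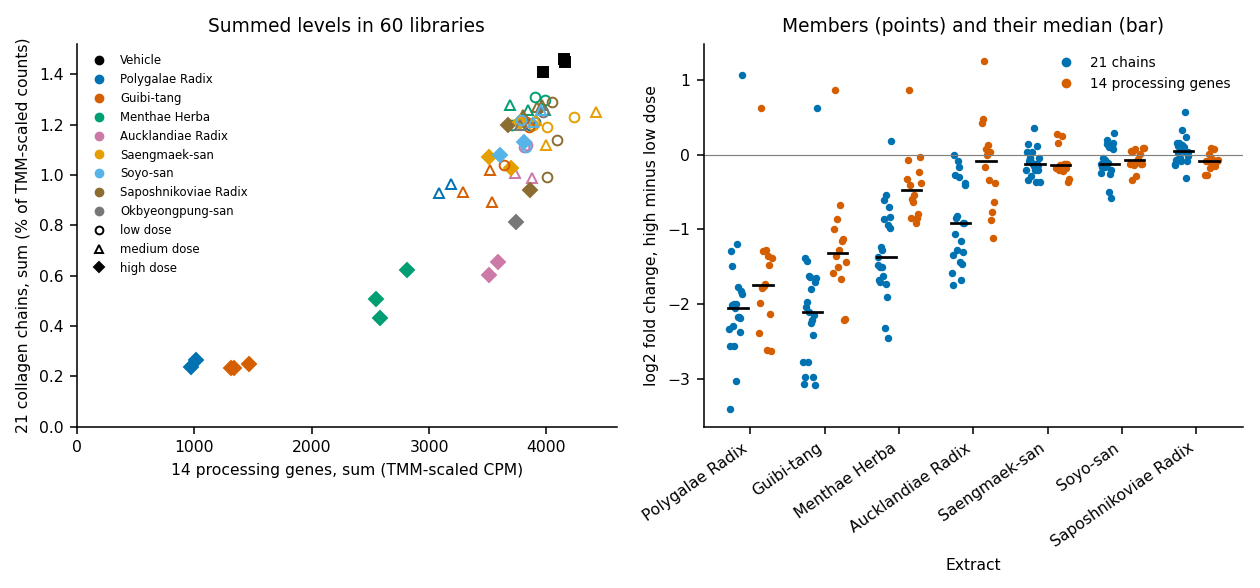
Left, summed collagen chains (percent of counts) against summed processing genes (CPM) in each of the 60 libraries; right, the log2 fold change of each member at the high versus the low dose by extract, with the median of the 21 chains and of the 14 processing genes as bars. The high dose libraries of Polygalae Radix and Guibi-tang are low on both axes, while those of Aucklandiae Radix are low in chains and near the low dose in processing genes.

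High and low dose of the same extract were compared first, because both lie in 1 library set. Polygalae Radix lowered 20 of 21 chains and 13 of 14 processing genes at 30 against 1.2 µg/mL, by edgeR's quasi-likelihood test with Benjamini-Hochberg adjustment over all genes tested, where 25.2% of all tested genes were lower. Guibi-tang lowered 20 chains and 13 processing genes at 500 against 20 µg/mL, where 27.4% of genes were lower. Menthae Herba lowered 20 chains and 9 processing genes (4 when its groups were fitted alone) against a background of 9.28%, and Aucklandiae Radix 15 chains and 5 processing genes against 13.4%. The median log2 fold change was -2.05 over the chains and -1.75 over the processing genes for Polygalae Radix, -2.10 and -1.32 for Guibi-tang, -1.37 and -0.47 for Menthae Herba, and -0.91 and -0.09 for Aucklandiae Radix. The median over all tested genes was 0.03, 0.02, 0.02 and -0.01 in the same order. With 1 library left out in turn, Polygalae Radix lost no call and Guibi-tang that of P4HA3. Menthae Herba lost COL15A1 and LOX in some fit, and Aucklandiae Radix COL5A2, COL12A1, COL15A1, COL18A1, P4HA1, P4HA2, P4HA3, LOXL4, PCOLCE and BMP1.

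Few members passed under the other extracts. Saposhnikoviae Radix lowered 0 of the 35 members, where edgeR's test called 0.181% of genes lower. At an unadjusted p under 0.05, 2 members were lower (COL13A1 and P4HA1), and DESeq2 called 0. Saengmaek-san lowered BMP1 alone (3.28% of genes lower) and raised P4HA2 (2.41% higher). Soyo-san lowered COL13A1 alone, a transmembrane collagen, where 0.232% of genes were lower. The chains' medians were 0.05 for Saposhnikoviae Radix, -0.12 for Saengmaek-san and -0.13 for Soyo-san on the log2 scale. The calls of BMP1, P4HA2 and COL13A1 were each lost when some single library was left out.

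**Figure D2:**
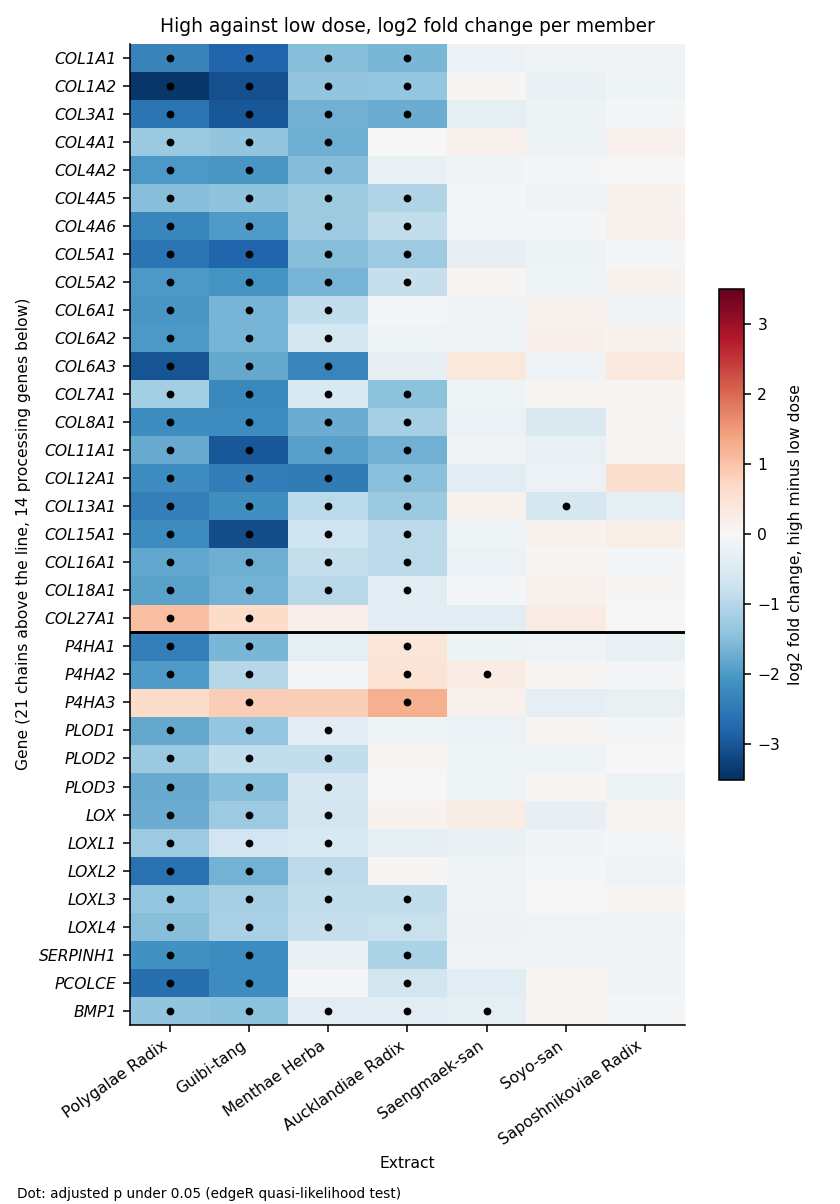
Log2 fold change at the high versus the low dose for the 35 members (rows, by role) and 7 extracts (columns), with a dot where the adjusted p is under 0.05. Polygalae Radix and Guibi-tang are blue in all rows but COL27A1 and P4HA3, and Menthae Herba is blue mainly among the chains. Aucklandiae Radix is blue among the chains of types I, III, V and XI and pale among type VI chains, LOX and LOXL2.

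Type I collagen, the main fibrillar collagen, fell clearly, though other members fell further under some extracts. COL1A1, its alpha-1 chain, read 4124, 4134 and 3937 CPM in the vehicle libraries. It read 702.2 and 565.7 CPM at the high dose of Polygalae Radix against 3247 and 3160 CPM at the low dose, with no overlap (log2 fold change -2.34 ± 0.14 SE, adjusted p = 3.2e-17, edgeR). Under Guibi-tang it read 412, 417.6 and 454.2 CPM at the high dose and 3156, 2677 and 2911 CPM at the low dose (-2.77 ± 0.12, adjusted p = 3.4e-22). These 5 high dose libraries held the lowest COL1A1 levels of the study.

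Aucklandiae Radix brought COL1A1 to 850.8 and 985.7 CPM at the high dose from 2816 and 2709 CPM at the low dose (-1.59 ± 0.14, adjusted p = 5.1e-12, edgeR). Menthae Herba brought it to 1414, 1124 and 904.9 CPM from 3245, 3381 and 2964 CPM (-1.48 ± 0.11, adjusted p = 3.3e-13). All high dose libraries of both herbs lay below all of their low dose libraries.

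COL1A2, the alpha-2 chain of the same helix, fell further than COL1A1 under Polygalae Radix. It read 135.4 and 137.5 CPM at the high dose against 1406 and 1503 CPM at the low dose, a 10.7-fold drop (-3.41 ± 0.16, adjusted p = 1.3e-20, edgeR). Under Guibi-tang it read 175.7, 188.7 and 183.4 CPM against 1546, 1463 and 1579 CPM, an 8.38-fold drop (-3.07 ± 0.13, adjusted p = 2.4e-22). Under Aucklandiae Radix the log2 change of COL1A2 was -1.35 ± 0.15 and under Menthae Herba -1.37 ± 0.12.

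A type I helix normally holds 2 alpha-1 chains and 1 alpha-2 chain. The ratio of COL1A1 to COL1A2 in CPM per kb ranged from 1.68 to 1.71 in the vehicle. At the high dose of Polygalae Radix the 2 libraries gave 3.31 and 4.17 against 1.69 and 1.86 at the low dose. Under Guibi-tang the ratio ran from 1.78 to 1.99 at the high dose and 1.47 to 1.64 at the low dose, without overlap. Aucklandiae Radix (mean 1.38 against 1.62) and Menthae Herba (1.42 against 1.53) had the lower mean ratio at the high dose. The Menthae Herba libraries overlapped, at 1.31 to 1.5 against 1.44 to 1.61, while those of Aucklandiae Radix did not. An exact two-sided permutation test cannot go below p = 0.333 with 2 against 2 libraries or below p = 0.1 with 3 against 3. None of the 42 ratio comparisons had an adjusted p under 0.467.

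**Figure D3:**
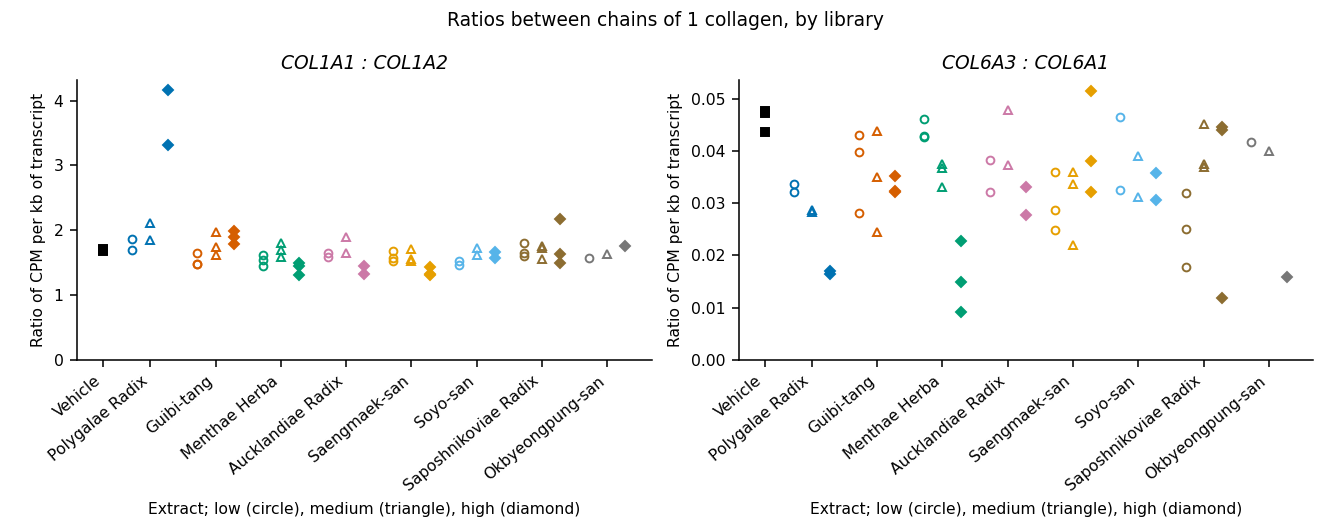
Ratio of COL1A1 to COL1A2 and of COL6A3 to COL6A1, in CPM per kb, by library and group, with points as libraries. The 2 high dose libraries of Polygalae Radix, at 3.31 and 4.17, stand above the vehicle range of 1.68 to 1.71 in the first panel.

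The chains of types III, V and XI followed. COL5A1, which helps to set fibril diameter, read 2547, 2659 and 2523 CPM in the vehicle. It fell to 360.1 and 333.7 CPM at the high dose of Polygalae Radix from 2076 and 2027 CPM at the low dose (-2.56 ± 0.25, adjusted p = 2.8e-11, edgeR). Guibi-tang took it to 276.1, 277 and 307.7 CPM from 2192, 1615 and 2075 CPM (-2.77 ± 0.2), and Aucklandiae Radix to 742 and 821.6 CPM from 1837 and 1941 CPM (-1.27 ± 0.24). COL3A1, scarce in these cells, read 3.026, 3.546 and 4.838 CPM at the high dose of Guibi-tang against 31.49, 29.56 and 29.78 CPM at the low dose (-2.98 ± 0.17). COL11A1, a minor chain found inside fibrils, read 3.427, 4.335 and 3.87 CPM against 32.82, 25.01 and 33.97 CPM in the same comparison (-2.98 ± 0.31). The 6 members of types I, III, V and XI are COL1A1, COL1A2, COL3A1, COL5A1, COL5A2 and COL11A1. All 6 were lower under each of Polygalae Radix, Aucklandiae Radix, Menthae Herba and Guibi-tang, with medians of -2.45, -1.47, -1.56 and -2.87. COL27A1, a further fibrillar collagen, was not counted among them. It was called higher under Polygalae Radix (1.06) and Guibi-tang (0.63) and was not called under Aucklandiae Radix (-0.38) or Menthae Herba (0.18).

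Among the extracts that lowered most chains from low to high dose, Aucklandiae Radix stood apart in the chains of types IV and VI. Polygalae Radix, Menthae Herba and Guibi-tang lowered all 7 of these chains, with medians of -2.01, -1.27 and -1.64. Aucklandiae Radix lowered 2 of the 7, COL4A5 (-1.06 ± 0.17) and COL4A6 (-0.85 ± 0.21), with a median of -0.27. Saposhnikoviae Radix, Saengmaek-san and Soyo-san lowered none of the 7. COL6A1 read 437.1 and 390.3 CPM at the high dose of Polygalae Radix against 1731 and 1701 CPM at the low dose (-2.05 ± 0.1, adjusted p = 1.2e-19, edgeR). Under Aucklandiae Radix it read 1512 and 1488 CPM against 1627 and 1555 CPM (-0.08 ± 0.1, adjusted p = 0.616). Both high dose values lay below the vehicle libraries, at 1791, 1686 and 1692 CPM, as did those of the other type IV and VI chains. Against the vehicle, set and extract cannot be told apart. A test of the difference itself put the change of COL6A1 1.97 log2 units lower under Polygalae Radix than under Aucklandiae Radix, whose libraries share a set (difference -1.97 ± 0.14, adjusted p = 2e-14).

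COL4A1 and COL4A2 are transcribed away from each other. Their RefSeq starts do not overlap, but the gene extents of GENCODE release 29 do, and whether counting used strand is not given in the sources used here. COL4A1 (chromosome 13, 110148963 to 110307233, minus strand) read 280.4 and 310.6 CPM at the high dose of Aucklandiae Radix and 290.2 and 301.7 CPM at the low dose, which overlap (0.00 ± 0.23). Under Polygalae Radix it read 119.5 and 122.6 CPM against 294.1 and 297.6 CPM (-1.29 ± 0.23, adjusted p = 1.5e-05, edgeR). The difference between the pair of herbs was -1.29 ± 0.33 (adjusted p = 0.00179). COL4A2 (110305812 to 110513209, plus strand) fell by 2.01 on the log2 scale under Polygalae Radix and by 2.04 under Guibi-tang, more than COL4A1 in both (-1.29 and -1.38), though the difference between the 2 genes was not tested.

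COL6A3, the long chain of the type VI trimer, read 18.19 and 16.82 CPM at the high dose of Polygalae Radix against 141.1 and 145.6 CPM at the low dose (-3.03 ± 0.4, adjusted p = 4.8e-08, edgeR). Under Menthae Herba it read 56.16, 33.6 and 18.92 CPM against 191.3, 183.1 and 167.3 CPM (-2.32 ± 0.32, adjusted p = 5.8e-07). The lowest of these is the library whose long transcripts read low, and the part of that slope in the value was not tested. Without the libraries of low slope, edgeR still called 20 of 21 chains lower under Menthae Herba. The ratio of COL6A3 to COL6A1 in CPM per kb was 0.0463 in the vehicle, 0.0167 at the high and 0.0329 at the low dose of Polygalae Radix, and 0.00915 to 0.0227 at the high against 0.0427 to 0.0461 at the low dose of Menthae Herba.

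COL12A1, which decorates fibrils and has one of the longest transcripts, read 118.3, 76.27 and 25.98 CPM at the high dose of Menthae Herba against 406.4, 438.3 and 370.9 CPM (-2.46 ± 0.42, adjusted p = 3.1e-05, edgeR). COL15A1, a basement membrane proteoglycan chain, fell 8.5-fold under Guibi-tang, to 0.9478, 1.031 and 1.366 CPM from 10.23, 7.969 and 10.54 CPM (-3.09 ± 0.24, adjusted p = 4.3e-14). COL7A1, the anchoring fibril collagen of skin, fell by 2.26 under Guibi-tang, 1.44 under Aucklandiae Radix, 1.19 under Polygalae Radix and 0.54 under Menthae Herba on the log2 scale. COL18A1, the source of endostatin, fell by 1.87, 1.65, 0.98 and 0.40 under Polygalae Radix, Guibi-tang, Menthae Herba and Aucklandiae Radix. It overlaps SLC19A1 on the other strand.

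COL27A1, a fibrillar collagen known from cartilage, was the only chain called higher at the high against the low dose of any extract. It read 34.15 and 28.96 CPM at the high dose of Polygalae Radix against 16.91 and 13.27 CPM at the low dose, with the vehicle at 17.27, 15.41 and 16.03 CPM (1.06 ± 0.15, adjusted p = 1e-07, edgeR, where 20.8% of genes were higher). Under Guibi-tang it read 22.78, 22.4 and 23.11 CPM against 14.84, 12.95 and 16.45 CPM (0.63 ± 0.12, adjusted p = 2.6e-05, where 23.8% of genes were higher). The medium doses, at 16.7 and 13.41 CPM for Polygalae Radix and 15.73, 13.32 and 16.8 CPM for Guibi-tang, lay within the low dose and vehicle range. The change of COL27A1 was greater under Polygalae Radix than under Aucklandiae Radix (difference 1.44 ± 0.21, adjusted p = 5.2e-07) and under Guibi-tang than under Saengmaek-san (difference 1.00 ± 0.17, adjusted p = 9.3e-06).

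**Figure D4:**
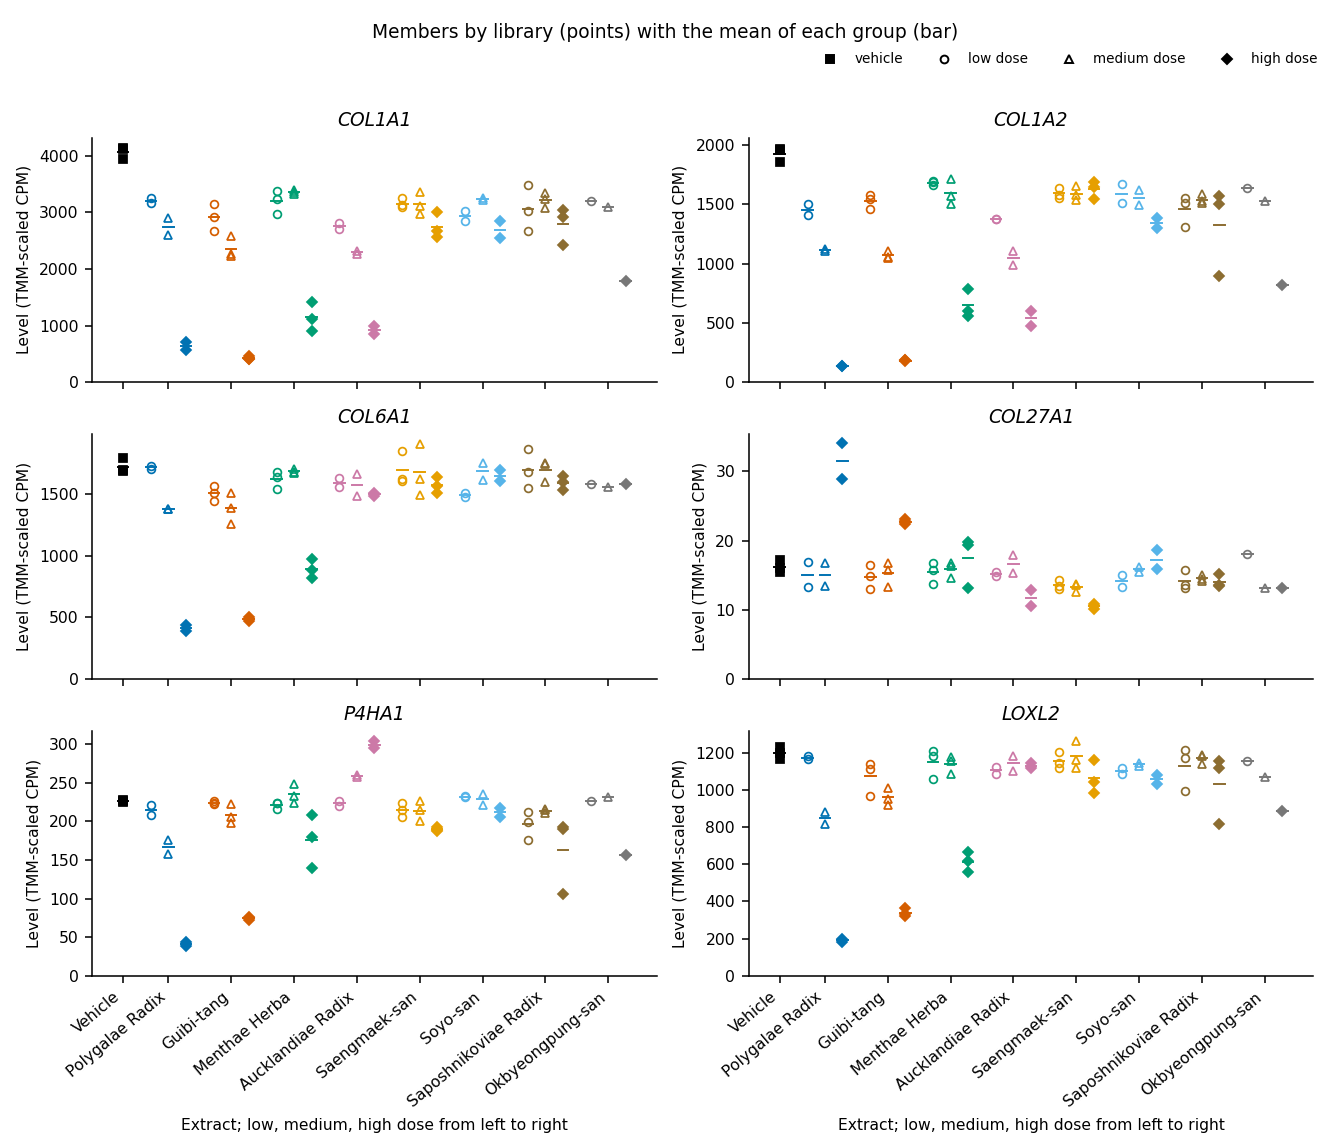
Levels (CPM) of COL1A1, COL1A2, COL6A1, COL27A1, P4HA1 and LOXL2 in each library by group, with bars at the group means. COL1A1 and COL1A2 are low at the high dose of 4 extracts, COL27A1 is high at the high dose of Polygalae Radix and Guibi-tang, and P4HA1 is above the vehicle at the high dose of Aucklandiae Radix.

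Among the processing genes, the prolyl 4-hydroxylase catalytic subunits P4HA1 and P4HA2 went opposite ways under the herbs of 1 set. P4HA1 (chromosome 10, 73007217 to 73096974, minus strand) read 226.5, 227.5 and 225.3 CPM in the vehicle. It read 37.93 and 44.18 CPM at the high dose of Polygalae Radix against 208.5 and 220.9 CPM at the low dose (-2.39 ± 0.16, adjusted p = 3.8e-16, edgeR). Under Aucklandiae Radix it read 295.5 and 303.4 CPM at the high dose, 259.9 and 257.4 CPM at the medium dose and 219.6 and 226.9 CPM at the low dose, and high against low was 0.42 ± 0.15 (adjusted p = 0.0311, where 10.5% of genes were higher). The 3 doses did not overlap.

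P4HA2 (chromosome 5, 132191838 to 132295315, minus strand) read 160.1 and 205.6 CPM at the high dose of Aucklandiae Radix against 132.2 and 130.8 CPM at the low dose (0.48 ± 0.1, adjusted p = 0.00027, edgeR), and fell by 1.99 under Polygalae Radix. It overlaps PDLIM4 and SLC22A4 on the other strand. P4HA3 was called higher under Aucklandiae Radix (1.25 ± 0.45, adjusted p = 0.0363) at 0.7677 and 0.9039 CPM against 0.4944 and 0.2283 CPM, and was at 0.63 ± 0.48 (adjusted p = 0.295) under Polygalae Radix. The rises are fragile to leaving out a library. P4HA1 lost its call without any 1 of the 4 Aucklandiae libraries, at 0.40 to 0.45 and an adjusted p of 0.0921 to 0.15. P4HA2 lost it without high replicate 3 (0.28, adjusted p = 0.0823), and P4HA3 lost it in 3 of these 4 fits, with an adjusted p of up to 0.409 (without low replicate 3). Under Menthae Herba no prolyl 4-hydroxylase passed the test, with P4HA1 at -0.33 ± 0.12 (adjusted p = 0.0541) and P4HA2 at -0.07 ± 0.08, and Guibi-tang lowered P4HA1 by 1.59 and P4HA2 by 1.00 on the log2 scale. P4HA3 read 0.7656, 0.9397 and 0.8821 CPM at the high dose of Guibi-tang against 0.5348, 0.4269 and 0.4455 CPM at the low dose (0.87 ± 0.34, adjusted p = 0.0279), a call lost without the libraries of low slope (adjusted p = 0.0569). Saengmaek-san raised P4HA2 to 161, 154.3 and 157.8 CPM from 129.2, 133.4 and 129 CPM (0.27 ± 0.08, adjusted p = 0.0331). That call was lost without the libraries of low slope (adjusted p = 0.306), which leaves 1 library a dose assumed to vary like the others.

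The lysyl hydroxylases fell together under Polygalae Radix, Guibi-tang and Menthae Herba and did not pass the test under Aucklandiae Radix. PLOD1 read 168 and 161 CPM at the high dose of Polygalae Radix against 563.1 and 567.3 CPM at the low dose (-1.78 ± 0.1, adjusted p = 1.8e-18, edgeR). PLOD3, which also adds sugars to hydroxylysine, fell by 1.76, 1.5 and 0.59 on the log2 scale under Polygalae Radix, Guibi-tang and Menthae Herba. PLOD2, the lysyl hydroxylase of the telopeptides, fell by 1.29, 0.86 and 0.85. Under Aucklandiae Radix the log2 changes were -0.16 ± 0.09 for PLOD1, 0.08 ± 0.22 for PLOD2 and -0.01 ± 0.11 for PLOD3.

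LOXL2 was the most abundant lysyl oxidase and the one that fell furthest under Polygalae Radix, to 197.6 and 182.7 CPM from 1183 and 1163 CPM (-2.62 ± 0.12, adjusted p = 5.7e-21, edgeR). Guibi-tang took it to 331, 322.1 and 367 CPM from 1111, 964.6 and 1139 CPM (-1.66 ± 0.09), and Menthae Herba to 662.8, 616.4 and 559 CPM from 1210, 1181 and 1058 CPM (-0.91 ± 0.09). Under Aucklandiae Radix it read 1116 and 1144 CPM against 1123 and 1086 CPM, which overlap (0.03 ± 0.11, adjusted p = 0.888). The difference between Polygalae and Aucklandiae Radix was -2.66 ± 0.16 (adjusted p = 1.6e-16). LOXL2 overlaps ENTPD4 on the same strand. LOX itself read 133.5 and 119.8 CPM at the high dose of Aucklandiae Radix against 113 and 118.8 CPM (0.13 ± 0.23), and fell by 1.73 under Polygalae Radix and 1.27 under Guibi-tang. LOXL3 and LOXL4 were lower under all of Polygalae Radix, Aucklandiae Radix, Menthae Herba and Guibi-tang, while LOXL1 was lower under each of these but Aucklandiae Radix (-0.34 ± 0.16, adjusted p = 0.113).

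SERPINH1, the collagen chaperone, fell under Aucklandiae Radix, Guibi-tang and Polygalae Radix. It read 188.9 and 196.3 CPM at the high dose of Aucklandiae Radix against 419.6 and 414.4 CPM at the low dose (-1.11 ± 0.17, adjusted p = 1.4e-06, edgeR). Under Menthae Herba it read 331.1, 312.1 and 404.5 CPM against 406.2, 412.5 and 412.1 CPM (-0.23 ± 0.13, adjusted p = 0.257), with every high dose library below every low dose one. At the high dose it was lower under Menthae Herba than under Saposhnikoviae Radix (-0.48 ± 0.13, adjusted p = 0.00991). The Saposhnikoviae libraries read 399.4, 680.2 and 386.7 CPM, which overlap those of Menthae Herba. The value of 680.2 CPM is from the library with a slope of -0.671. That call was lost in some refit with a single library left out, and this library was among those left out in turn. Which refit lost the call is not given here. The change was not compared between Menthae Herba and Aucklandiae Radix, which are in different sets. Guibi-tang took it to 97.08, 94 and 100.7 CPM from 427.1, 496.8 and 427.7 CPM (-2.21 ± 0.14, adjusted p = 1.1e-16) and Polygalae Radix to 97.79 and 99.35 CPM from 412.7 and 449.9 CPM (-2.13 ± 0.17).

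The procollagen C-proteinase BMP1 was lower under all of Polygalae Radix, Guibi-tang, Aucklandiae Radix and Menthae Herba, and its enhancer PCOLCE under each of these but Menthae Herba. PCOLCE read 27.73 and 25.35 CPM at the high dose of Polygalae Radix against 160 and 169 CPM (-2.63 ± 0.22, adjusted p = 3.6e-13, edgeR), and 127.5, 129 and 166.1 CPM at the high dose of Menthae Herba against 141.3, 154.3 and 137 CPM, which overlap (-0.03 ± 0.17). BMP1 fell by 1.38 under Polygalae Radix, 1.44 under Guibi-tang and 0.38 under each of Aucklandiae Radix and Menthae Herba. It was the 1 processing gene lower under Saengmaek-san, at 212.5, 206.3 and 200.4 CPM against 278.8, 249.3 and 251.7 CPM (-0.33 ± 0.09, adjusted p = 0.0216).

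Against the vehicle, the high doses of Saposhnikoviae Radix, Saengmaek-san and Soyo-san also lowered some fibril-forming chains. By edgeR's test Polygalae Radix lowered 20 chains and 13 processing genes (25.6% of genes lower) and raised COL27A1 (22.4% higher). Guibi-tang lowered 20 and 13 (26.6%) and raised COL27A1 and P4HA3 (23.6%). Menthae Herba lowered 20 and 10 (11.7%, 6 of the processing genes when fitted alone) and raised 0 (11.1%), and Aucklandiae Radix lowered 17 and 7 (17.0%) and raised P4HA1 and P4HA2 (15.7%). Saposhnikoviae Radix lowered COL1A1, COL1A2, COL3A1, COL5A1 and P4HA1 (4.05%), and Soyo-san COL1A1, COL1A2, COL8A1 and COL13A1 (1.29%). Saengmaek-san lowered COL1A1, COL3A1, COL5A1, COL15A1, COL27A1, PLOD1 and BMP1 (8.54%) and raised COL13A1 (8.87%). When some single library was left out, all 4 calls of Soyo-san were lost (0 to 2 chains left in any fit), as were COL3A1, COL5A1 and P4HA1 of Saposhnikoviae Radix, COL5A1, COL13A1, COL15A1, PLOD1 and BMP1 of Saengmaek-san, and P4HA1 and P4HA2 of Aucklandiae Radix. Also lost in some such fit were COL27A1, LOXL1, LOXL4 and PCOLCE of Aucklandiae Radix. The same held for COL7A1, P4HA1, LOX and LOXL4 of Menthae Herba and for P4HA3 of Guibi-tang, while Polygalae Radix lost no call. These 7 comparisons share the 3 vehicle libraries.

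The vehicle read higher than the treated libraries for type I collagen even at low doses. All 57 treated libraries had less COL1A1 than any vehicle library, with a highest treated value of 3478 CPM and a lowest vehicle value of 3937 CPM. For 4 chains all 57 treated libraries lay below the vehicle, and for 6 chains all 19 low dose libraries did, while no processing gene showed either. Of all tested genes, 0.749% had all treated and 3.88% all low dose libraries below the vehicle. COL1A1 was called lower at the low dose of Aucklandiae Radix (-0.56 ± 0.12, adjusted p = 0.026, edgeR, 0.222% of genes lower), Guibi-tang (-0.48 ± 0.11, adjusted p = 0.0137, 0.919%), Soyo-san (-0.47 ± 0.12, adjusted p = 0.0419, 0.589%) and Saengmaek-san (-0.37 ± 0.11, adjusted p = 0.0476, 1.25%). At the low dose of Saposhnikoviae Radix 8 chains were lower (COL1A1, COL1A2, COL3A1, COL4A1, COL4A6, COL5A1, COL6A3 and COL15A1), where 7.62% of genes were. There 2 of the 3 libraries have low slopes (-0.303 and -0.503), and their part in those calls was not tested. No member was lower at the low dose of Polygalae Radix (0.263% of genes lower) or Menthae Herba (0.217%), where 6 and 3 members were lower at an unadjusted p under 0.05. Low dose and library set cannot be told apart here.

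At the medium doses the calls thinned. Against the vehicle, Polygalae Radix at 6 µg/mL lowered 12 chains and the processing genes P4HA2, PLOD1, LOXL2 and BMP1 (2.64% of genes lower, edgeR). Guibi-tang at 100 µg/mL lowered 12 chains and PLOD1, PLOD3, LOXL2 and BMP1 (3.10%). Aucklandiae Radix at 32 µg/mL lowered COL1A1, COL1A2, COL3A1, COL7A1 and COL18A1 and no processing gene (1.85%), and Saengmaek-san lowered COL1A1 (1.49%). Menthae Herba (0.491%), Saposhnikoviae Radix (0.429%) and Soyo-san (0.0413%) lowered no member, and 6, 6 and 3 members were lower there at an unadjusted p under 0.05, COL1A1 among them. Within the set, medium against low dose called COL4A2 (-0.52, adjusted p = 0.00848), COL13A1 (-0.53, adjusted p = 0.0214) and LOXL2 (-0.47, adjusted p = 0.0203) under Polygalae Radix, where 1.16% of genes were lower. It called COL1A2 (-0.52, adjusted p = 0.029) under Guibi-tang, where 0.263% were lower, and no member under Aucklandiae Radix, where 0.0775% were and 3 members were lower at an unadjusted p under 0.05. COL1A2 read 1054, 1045 and 1106 CPM at the medium dose of Guibi-tang, between its low and its high dose libraries.

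High doses of the 2 extracts of a set were compared with each other, at the same 500 µg/mL for the pairs other than Polygalae Radix (30 µg/mL) and Aucklandiae Radix (160 µg/mL). Polygalae Radix lay below Aucklandiae Radix in 17 chains and 13 processing genes (25.4% of genes lower, edgeR) and above it in COL27A1 (23.7% higher), with medians of -1.09 over the chains and -1.56 over the processing genes. Guibi-tang lay below Saengmaek-san in 20 chains and 13 processing genes (26.9% lower) and above it in COL27A1 and P4HA3 (24.7% higher), with medians of -2.0 and -1.29. Menthae Herba lay below Saposhnikoviae Radix in 20 chains and 8 processing genes (8.06% lower), with medians of -1.07 and -0.48. Fitted on those 6 libraries alone, which include 2 of low slope, this last comparison called 0 chains and 0 processing genes.

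The change from low to high dose was also compared between the extracts of a set in 1 model. It differed between Menthae Herba and Saposhnikoviae Radix in 20 chains and 5 processing genes, each lower under Menthae Herba (edgeR). Over all genes 11.5% differed and 7.01% were lower under Menthae Herba. It differed between Guibi-tang and Saengmaek-san in all 21 chains and 13 processing genes, lower under Guibi-tang but for COL27A1, where 34.9% of genes differed and 19.9% were lower. Between Polygalae and Aucklandiae Radix it differed in 17 chains and 12 processing genes, lower under Polygalae Radix in 16 of the chains and in all 12 processing genes, where 33.9% of genes differed and 18.7% were lower. SERPINH1 did not pass between Menthae Herba and Saposhnikoviae Radix (-0.14 ± 0.19, adjusted p = 0.693), while COL1A1 did (-1.35 ± 0.16, adjusted p = 4.8e-08). For these 2 herbs, low slopes were found in Menthae high replicate 3 (-0.516) and Saposhnikoviae high replicate 2 (-0.671). Saposhnikoviae low replicates 2 and 3 had them too (-0.303 and -0.503). Low slopes also occurred at both doses of Saengmaek-san and at the low dose of Guibi-tang. Their part in the differences was not tested.

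Okbyeongpung-san, with 1 library a dose and no replicate check, read 1786 CPM of COL1A1 at the high dose, 3099 at the medium and 3198 at the low dose. COL1A2 read 816.2, 1526 and 1641 CPM, while COL6A1 read 1585, 1558 and 1580 CPM. SERPINH1 was at 556, 430.6 and 465.5 CPM and P4HA1 at 156.6, 231.3 and 226.8 CPM. Its summed chains to summed processing genes gave ratios of 2.18, 3.17 and 3.16. COL12A1 was at 66.87, 346 and 380.3 CPM in the same order, and the high dose library is the one with a slope of -0.595, whose part in these values was not tested.

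Most genes that fold, modify or export collagen beside the members were lower under Polygalae Radix and Guibi-tang. Of 24 other folding, modification and export genes, Polygalae Radix lowered 19 and raised 2 against the vehicle, and Guibi-tang lowered 17 and raised 3 (edgeR). Of all tested genes, 25.6% were lower and 22.4% higher under Polygalae Radix in this comparison, 26.6% and 23.6% under Guibi-tang, 17.0% and 15.7% under Aucklandiae Radix, and 11.7% and 11.1% under Menthae Herba, and these shares stand beside the list counts that follow. P4HB, the partner subunit of the prolyl 4-hydroxylases, was at 383.3 ± 19.8 CPM (SD, n = 2) under Polygalae Radix and 517.8 ± 16.4 CPM (n = 3) under Guibi-tang, against 1559 ± 42.8 CPM in the vehicle (log2 fold changes -2.02 ± 0.11 and -1.59 ± 0.09 SE). P3H1, a prolyl 3-hydroxylase, fell by 2.18 and 1.67. Under Aucklandiae Radix 8 were lower and 1 (TMEM38B) higher, and under Menthae Herba 12 lower and 1 (KLHL12) higher. ADAMTS3, a procollagen N-proteinase, led both, with log2 fold changes of -4.9 and -2.02.

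Of 12 endoplasmic reticulum chaperones Polygalae Radix lowered 8 and raised XBP1 and DNAJB9 against the vehicle, where 25.6% of all genes were lower and 22.4% higher. HSPA5 (BiP), the main chaperone of the compartment, was at 396.1 ± 3.15 CPM (SD, n = 2) under Polygalae Radix and 747.7 ± 10.1 CPM (n = 3) under Guibi-tang, against 3481 ± 61 CPM in the vehicle (log2 fold changes -3.14 ± 0.13 and -2.22 ± 0.1, edgeR). Guibi-tang lowered 7 of the 12 and raised the same pair (26.6% and 23.6% of all genes). Under Aucklandiae Radix 4 were higher and 1 lower (15.7% and 17.0% of all genes), and under Menthae Herba 4 were higher and 4 lower (11.1% and 11.7%), with HERPUD1 at 1.12 in the latter.

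Genes of collagen breakdown and collagen receptors were lower more often than higher under Polygalae Radix, Guibi-tang and Menthae Herba. Of 17 degradation genes and inhibitors, 15 were lower and 1 (CTSK) higher under Polygalae Radix, 12 lower under Guibi-tang and 11 lower under Menthae Herba (edgeR, against the vehicle), where 25.6%, 26.6% and 11.7% of all genes were lower. Aucklandiae Radix raised 4 (MMP1, MMP3, MMP14 and CTSL) and lowered 6, where 15.7% of genes were higher and 17.0% lower. MMP1, the interstitial collagenase, was at 80.22 ± 10.3 CPM (SD, n = 2) under Aucklandiae Radix against 34.47 ± 1.52 CPM (n = 3) in the vehicle (log2 fold change 1.22 ± 0.07, adjusted p = 3.5e-17). Of 7 collagen receptors 7 fell under Polygalae Radix, 6 under Guibi-tang and 5 under Menthae Herba. Aucklandiae Radix lowered 3 and raised ITGA2, the alpha-2 integrin subunit, by 2.20. ITGA11, the alpha-11 subunit that binds fibrillar collagen, fell under each of the 4, by 1.85, 2.07, 1.08 and 1.38 for Polygalae Radix, Guibi-tang, Menthae Herba and Aucklandiae Radix.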

How the data were processed

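The authors deposited 1 table of expected counts per gene for 60 SW1783 libraries. Per the submitters' processing notes, the tools included RSEM 1.3.3 and the aligner STAR 2.7.3a, on GRCh38 (hg38), with Trim Galore 0.6.5 and FastQC 0.11.9. Per the labels' protocols the libraries were directional and read in pairs. The strand setting of counting is not given in the sources used here.

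Expected counts were rounded. edgeR 4.0.16 in R 4.3.3 (limma 3.58.1) filtered genes with filterByExpr (minimum count 10, minimum total 15), scaled by TMM, and fitted 25 group means over 60 libraries with 35 residual degrees of freedom. The robust quasi-likelihood test was two-sided, and genes with a Benjamini-Hochberg adjusted p under 0.05 over 19366 genes were called. Levels are TMM-scaled CPM, per kb of the longest principal transcript of GENCODE release 29 where stated. Log2 fold changes come from edgeR's quasi-likelihood fit. A prior count of 2 was used for log2 CPM values, such as those behind the length slopes, and not for the fold changes.

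The comparisons were high dose against vehicle, high against low dose, medium and low dose against vehicle, and high against high dose within a library set. Medium against low dose, and the difference of high minus low between extracts of a set, were added after seeing the data. The members and lists were chosen with earlier results of these data known. All 35 members may be named. Of each companion list, up to 3 called genes with the largest change at a high dose against vehicle may be named, and those called against their list's majority where 5 or fewer. Chain ratios used an exact permutation test over libraries. The comparison script was checked on simulated data. Other settings were DESeq2 1.42.0, its size factors, no low-count filter, replicate blocks, a length slope covariate, leaving out libraries, and fits of the compared groups alone. No comparison with 3 pairs had all correlations of same-numbered libraries above 0.1.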

Additional observations from a re-analysis of the deposited data

Results flagged for a closer look

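In 3 comparisons a prolyl 4-hydroxylase gene changed in opposite ways from low to high dose under the extracts of 1 library set, each change past edgeR's threshold and the difference itself tested. P4HA1 fell under Polygalae Radix and rose under Aucklandiae Radix, and the difference was -2.81 ± 0.21 (SE) on the log2 scale (adjusted p = 8.5e-14). P4HA2 did the same, with a difference of -2.46 ± 0.14 (adjusted p = 3e-17). P4HA2 also fell under Guibi-tang and rose under Saengmaek-san, with a difference of -1.27 ± 0.11 (adjusted p = 8.1e-12). The rises are the smaller side of each difference, at 0.42 and 0.48 under Aucklandiae Radix and 0.27 under Saengmaek-san, and each rise lost its call when some single library was left out.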

How the results depend on the processing

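For Polygalae Radix and Guibi-tang the counts of lower members, 20 chains and 13 processing genes, were the same in every setting run against vehicle and against low dose, left-out libraries included. Over 595 member results, of which 360 were called, DESeq2's size factors in edgeR left 594 on the same side of the threshold, DESeq2's own test lost 1 call and gained 9, and fits of the compared groups alone lost 47 and gained 36. Same-numbered libraries share only a number: with the replicate block edgeR lost 4 calls and gained 2, and with a block for replicate within library set it lost 1 and gained 4 of 350. Either block called 1 chain lower under Saengmaek-san, high against low dose, in place of 0. For Aucklandiae Radix, Menthae Herba and the high dose pairs other counts held within 1.5 times except where given here. Depth limits P4HA3, which stood at 0.4414 CPM in the vehicle and reached at most 1.21 CPM in any library. The cause of the shifts given here was not tested.

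Against the vehicle, the compared groups alone gave 6 lower processing genes for Menthae Herba (10 in the main fit) and 0 chains and 0 processing genes for Saposhnikoviae Radix (4 and 1). Processing genes of Saposhnikoviae Radix numbered 2 with the length slope covariate, 3 without the libraries of low slope and 2 by DESeq2. For Saengmaek-san, chains numbered 9 with the covariate, 12 in the groups alone and 8 by DESeq2 (5), and processing genes 0 without the low-count filter, 5 with the covariate and 4 in the groups alone (2). For Soyo-san, chains numbered 1 without the filter, 9 with the covariate, 12 without libraries of low slope and 16 in the groups alone (4), and processing genes 3, 1 and 4 in the last 3 settings (0).

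High against low dose, the groups alone gave 4 lower processing genes for Menthae Herba (9). The covariate gave 2 chains and 1 processing gene for Saposhnikoviae Radix (0 and 0). For Saengmaek-san chains numbered 8 with the covariate and 1 in the groups alone (0), and processing genes 0 without the filter, 5 with the covariate, 0 without libraries of low slope and 2 in the groups alone (1). For Soyo-san chains numbered 0 without the filter, 2 with the covariate, 3 without libraries of low slope, 0 in the groups alone and 2 by DESeq2 (1), and processing genes 1 with the covariate (0). Menthae against Saposhnikoviae Radix at the high dose, fitted alone, gave 0 chains (20) and 0 processing genes (8).

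With 1 library left out in turn, the counts against the vehicle ran from 16 to 17 chains and 5 to 7 processing genes for Aucklandiae Radix, 19 to 20 and 7 to 11 for Menthae Herba, 2 to 8 and 0 to 4 for Saposhnikoviae Radix, 3 to 8 and 0 to 2 for Saengmaek-san, and 0 to 2 chains for Soyo-san. High against low dose they ran from 12 to 13 chains and 3 to 4 processing genes for Aucklandiae Radix, 19 to 20 and 8 to 10 for Menthae Herba, 0 to 4 processing genes for Saposhnikoviae Radix (4 without high replicate 2), 0 to 1 processing gene for Saengmaek-san, and 0 chains for Soyo-san. Menthae against Saposhnikoviae Radix gave 18 to 20 and 6 to 9, and Polygalae against Aucklandiae Radix 15 to 16 and 12 to 13. Where this left 1 library in a group, that library was assumed to vary like the others.

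In 3 results that the main fit did not call, a setting gave a call in the opposite direction. Changes of sign with no call on either side numbered 29 with the covariate and 31 without the libraries of low slope, of 595 each, and 110 of 3185 with 1 library left out. SERPINH1 of Saengmaek-san high against vehicle was -0.15 with the covariate (0.01), COL11A1 of Polygalae against Aucklandiae Radix was -0.37 with the covariate (0.19), and SERPINH1 of Saposhnikoviae Radix high against vehicle was -0.18 without the libraries of low slope (0.15).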

Other observations

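Lists outside collagen making gave different pictures under the extracts that lowered the chains, by edgeR's quasi-likelihood test against the vehicle. Of 13 hypoxia-responsive genes Menthae Herba raised 8 and lowered 0, and Aucklandiae Radix raised 6 and lowered EGLN3, where 11.1% and 15.7% of all genes were higher. Polygalae Radix lowered 8 and raised ADM, and Guibi-tang lowered 7 and raised ADM and VEGFA, where 25.6% and 26.6% of all genes were lower. NDRG1, a gene known to rise in low oxygen, was at 206.3 ± 8.06 CPM (SD, n = 3) under Menthae Herba and 166.6 ± 9.05 CPM (n = 2) under Aucklandiae Radix, against 59.04 ± 1.21 CPM in the vehicle. ALDOC, a glycolytic aldolase, was at 0.621 ± 0.24 CPM (n = 2) under Polygalae Radix and 22.19 ± 5.25 CPM (n = 3) under Menthae Herba, against 7.459 ± 0.396 CPM in the vehicle.

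Of 18 genes of the TGF-beta pathway, a main inducer of fibrillar collagen, Polygalae Radix lowered 7 and raised 6, and Guibi-tang lowered 9 and raised 6, beside 25.6% lower and 22.4% higher of all genes under Polygalae Radix and 26.6% and 23.6% under Guibi-tang. Menthae Herba lowered 12 and raised 0, and Aucklandiae Radix lowered 8 and raised TGFBR3, beside 11.7% and 17.0% of all genes lower. LTBP1, which binds latent TGF-beta in the matrix, fell by 3.35, 2.85 and 1.5 on the log2 scale under Polygalae Radix, Guibi-tang and Menthae Herba.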
